A study of Mus musculus with 12 samples.

Results

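The 39 genes described here are known interferon-stimulated genes and interferon-inducible GTPases of the mouse. They were chosen by their symbols, with earlier results of these data known. All 39 were found among the 25655 genes of each deposited table. They were measured by RNA sequencing of whole retina from C57BL/6J mice (C57BL/6 in the strain label) of 8 to 10 weeks, in which the optic nerve of the left eye had been crushed (ONC). All groups carried this injury and no uninjured retina was part of the comparison. After ONC the eye was given 1 intravitreal injection of PBS (control), fluvastatin (a statin, which inhibits cholesterol synthesis), MBV (matrix-bound nanovesicles, small vesicles taken from extracellular matrix) or both agents, and the retina was collected 2 days after injury. The PBS, fluvastatin and MBV groups each had 3 libraries and are compared here. The combination of MBV and fluvastatin was not analysed here. Whether a library held 1 retina or several is not given in the sources used here, so the p-values measure the spread between these libraries. In whole retina, fewer cells of a type and less RNA per cell cannot be told apart.

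Interferons are secreted proteins that warn cells of infection or damage. Type I interferons (the alpha and beta forms) act through the receptor Ifnar1 with Ifnar2 and the kinases Jak1 and Tyk2, and a complex that holds Stat2 and Irf9 then binds the interferon-stimulated response element (ISRE) in target promoters. Type II interferon (Ifng) acts through Ifngr1 with Ifngr2, Jak1 and Jak2, and its signal reaches the gamma-activated site (GAS), which is found at genes such as Irf1 and the GTPases. In the retina, microglia, Müller glia and incoming leukocytes are known to express such genes after injury.

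The sequences below show the motif that members of different roles share before their start sites. RefSeq promoter windows, from 250 bases before to 50 bases after a gene's start, were found for 29 of the 39 members. The ISRE core was searched as GAAANNGAAA and the GAS as TTCNNNGAA, each on both strands, and the 2 motifs could overlap. The ISRE letters were in the window of 18 of these 29 genes (62.1%), compared to 3.99% of 27025 genes with a window. The GAS letters were in 9 of the 29 (31.034%), compared to 9.55% of all genes. The ISRE alone was found in 12 members, the GAS alone in 3, both in 6 and neither in 8. A match is a description of these letters and not of a bound site. In each line the capitals mark a single match of the motif named, read on the strand of the gene, so that an ISRE on the other strand appears as its reverse complement. Further matches can stand unmarked in a line, as the ISRE letters do in those of Isg15 and Igtp. The window of Igtp held both motifs. The windows come from a RefSeq table of GRCm38.p6, and the coordinates are those of the identical sequence in GRCm39.
Ifit1 (ISRE, chr19:34618189-34618228, + strand): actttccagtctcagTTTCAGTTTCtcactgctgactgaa
Isg15 (ISRE, chr4:156285317-156285356, − strand): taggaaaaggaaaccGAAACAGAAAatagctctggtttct
Rsad2 (ISRE, chr12:26506547-26506586, − strand): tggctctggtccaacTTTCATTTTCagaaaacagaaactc
Oas3 (ISRE, chr5:120915775-120915814, − strand): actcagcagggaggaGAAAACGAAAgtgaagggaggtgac
Stat2 (ISRE, chr10:128106130-128106169, + strand): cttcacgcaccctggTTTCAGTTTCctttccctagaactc
Irf1 (GAS, chr11:53660736-53660774, + strand): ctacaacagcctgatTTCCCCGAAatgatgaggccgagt
Igtp (GAS, chr11:58090322-58090360, + strand): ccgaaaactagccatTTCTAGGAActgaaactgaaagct
These 7 genes were chosen to show both motifs across the IFIT, modifier, effector, sensor, transcription factor and GTPase roles. Rsad2, the member that passed the test with MBV, and Oas3, whose fitted difference was the largest between MBV and fluvastatin, both held the ISRE letters. Irf7, Irf9, Oasl2, Xaf1, Ifi44, Cmpk2, Herc6 and Lgals3bp held neither motif in their windows.

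The 9 libraries had between 21349516 and 30992040 counts, and the members took 0.0217% to 0.0445% of them. All members were counted in all groups. Mean levels over the 9 libraries were at least 1 CPM (counts relative to the size of the library, after scaling of library sizes) for 33 members and at least 10 CPM for 11, while 6 members had under 10 counts in some library. Rod and cone markers summed to 28150 to 44110 CPM, so the libraries carried the defining genes of retina. The library names carry sample numbers in 2 separate sets, and the labels do not say what the sets stand for. PBS was in the first and fluvastatin and MBV were in the second. For both comparisons with PBS the set of numbers and the treatment thus cannot be told apart, while MBV and fluvastatin lay within 1 set.

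The first question was how strongly the injured retina with PBS alone expressed these genes. Per kilobase of exon, the order of PBS levels began with Ifit3 at 6.95 ± 2.23 CPM per kb, Stat2 at 6.72 ± 1.55, Ifit3b at 4.60 ± 1.36 and Lgals3bp at 3.89 ± 0.552 (mean ± SD, n = 3). The SDs of these neighbours overlapped. The order ended with Zbp1, Oas2, Oas1a, Mx1 and Oas3, all between 0.0406 and 0.0778 CPM per kb. Transcripts of the signalling factor Stat2 and of the IFIT family were thus present at many times the level of Oas1a, Oas2 and Oas3. These are 2-5A synthetases, enzymes that activate RNase L. The related Oasl2 was higher, at 3.01 CPM per kb. With MBV the lowest of the order was Oas1a, at 0.128 CPM per kb.

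The members varied together between replicate libraries. Their mean level on the log2(CPM + 0.5) scale was 2.30 ± 0.41 with PBS, 2.20 ± 0.39 with fluvastatin and 2.497 ± 0.14 with MBV (mean ± SD, n = 3), so that the difference between either treatment and PBS was smaller than the SD of the PBS libraries. PBS replicate 3 was the highest of the PBS libraries in 36 of 39 members (38.0% of all genes), and its level was 1.80 times the mean of the other PBS libraries for the median member, compared to 1.00 for the median of all genes. Fluvastatin replicate 1 was the highest of its group in 34 members (35.4% of all genes) and fluvastatin replicate 2 the lowest in 31 (28.8%), with median ratios to the other libraries of 1.60 and 0.614. In the MBV group replicate 3 was the highest in 25 members (36.4%), with a median ratio of 1.19. The median coefficient of variation of the members was 41.0% with PBS, 31.8% with fluvastatin and 20.4% with MBV, whereas for 10584 genes in the same range of mean CPM it was 7.55%, 8.90% and 8.86%. The summed level of all members ran from 245.1 to 445.0 CPM with PBS, from 219.7 to 367 CPM with fluvastatin and from 339.9 to 356 CPM with MBV.

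**Figure D1:**
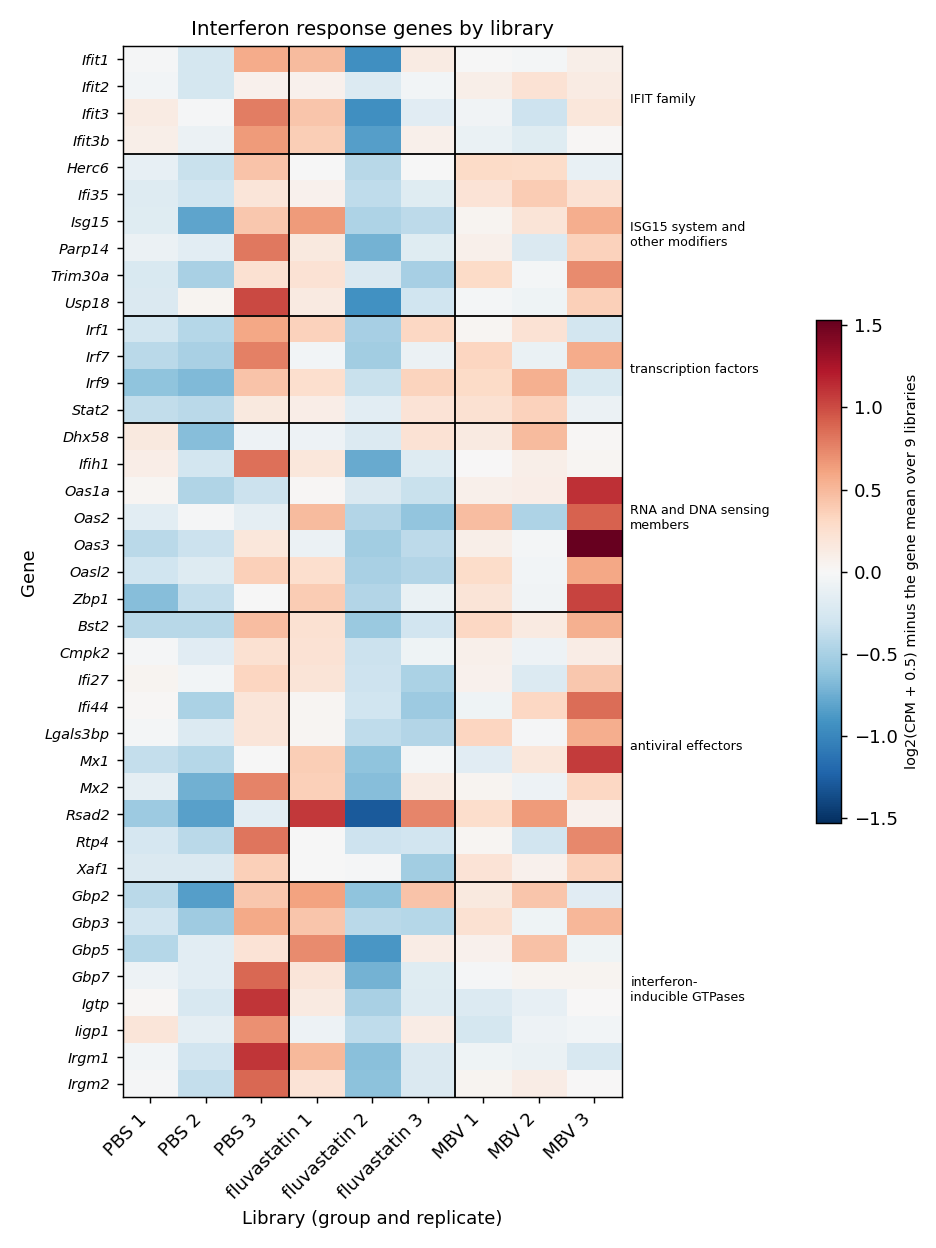
Level of each of the 39 genes (rows, grouped by role) in each of the 9 libraries (columns), as log2(CPM + 0.5) minus the mean of the gene over the 9 libraries, so that red is above and blue below that mean. PBS replicate 3 was the highest PBS library in 36 genes, fluvastatin replicate 2 the lowest fluvastatin library in 31, and the OAS genes, Mx1 and Zbp1 were highest in MBV replicate 3.

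Cell type markers were read beside this pattern. The 12 monocyte and macrophage markers, all counted, had a mean level of 1.01 on the log2(CPM + 0.5) scale in PBS replicate 3, compared to 0.64 and 0.56 in the other PBS libraries. In MBV replicate 3 the mean was 2.03, compared to 0.53 and 0.25 in the other MBV libraries, and the fluvastatin libraries lay between 0.34 and 0.62. Ccr2, the chemokine receptor of inflammatory monocytes, was at 9.496 CPM in MBV replicate 3 and at 2.38 and 0.594 CPM in the others. The summed level of the list was 113 to 151 CPM with PBS, 133 to 140.3 CPM with fluvastatin and 141 to 195 CPM with MBV, but Fn1 and Vcan, genes of the matrix as well, made up 87.6% to 99.2% of it and changed in opposite directions (with MBV Fn1 rose by 1.05 ± 0.129 and Vcan fell, at -1.73 ± 0.529, log2 ± SE, edgeR, adjusted p = 0.000905 and 0.0393). The other 10 markers summed to 2.63 to 6.84 CPM with PBS, 1.65 to 3.17 CPM with fluvastatin, and 3.98, 1.23 and 24.2 CPM in MBV replicates 1, 2 and 3. Microglial markers summed to 92.9, 96.8 and 107 CPM in PBS replicates 1, 2 and 3 and to 88.1, 91.5 and 108 CPM in MBV replicates 1, 2 and 3. In fluvastatin replicates 1, 2 and 3 the sums were 81.5, 94.3 and 87.2 CPM. Fluvastatin replicate 1, the highest of its group in 34 members, was thus the lowest library for these markers. Fluvastatin replicate 2, the lowest of its group in 31 members, was the highest of its group for them. Of the 12 T and NK cell markers 9 had at most 3 counts in every library. Lens markers rose with MBV in 6 of 6 genes compared to PBS (26.1% of all genes passed the test) and summed to 44.95 to 129 CPM, compared to 0.874 to 4.61 CPM. Of the 5 red blood cell markers 3 rose with each agent, with a median log2 difference of 1.13 with fluvastatin and 1.10 with MBV. Of the 6 pigment epithelium markers Pmel, Tyrp1 and Mlana fell with each, with Pmel at -2.01 and -2.44, whereas Ttr rose with each. Of all genes 19.6% passed the test with fluvastatin and 26.1% with MBV. The part of these cell types in the levels of the members was not tested.

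Transcripts of the ligands were nearly absent. Of 21 interferon genes searched, 16 had no count in any library and 19 had at most 3 counts in every library. Ifng and Ifnb1 had 0 counts in all 9 libraries, and a count of 0 allows up to 3 counts in each. The exceptions were the epithelial type I interferon Ifnk, with 2 to 10 counts, and Ifnz, with 1 to 9 counts. The receptors were well expressed. Ifnar1 was at 51.6 to 53.2 CPM with PBS, 56.4 to 58.4 with fluvastatin and 55.5 to 62.8 with MBV, which did not pass the test against PBS (edgeR quasi-likelihood, adjusted p = 0.0787 and 0.0864). Ifngr1 was at 28.7 to 31.1, 26.95 to 29.6 and 25.7 to 27.8 CPM in the same groups (adjusted p = 0.651 and 0.0670).

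Fluvastatin compared to PBS asked whether the statin alone shifted the response. None of the 39 members passed the test with fluvastatin, whereas 19.6% of 18818 genes did (edgeR quasi-likelihood, adjusted p under 0.05), and 17.7% of genes in the members' range of CPM. No member had an unadjusted p under 0.05 (32.5% of all genes), and DESeq2 also called 0 (18.9% of all genes). In 0 members were the 3 fluvastatin libraries all above or all below the 3 PBS libraries, which held in 17.3% and 19.3% of all genes. The fitted difference was above 0 in 12 members (30.8%, compared to 49.1% of all genes) and below 0 in 27, with a median of -0.14 on the log2 scale compared to -0.01 over all genes. Leaving out a single library changed the count. Without PBS replicate 3, Stat2 and Irf9 rose (16.2% of all genes called), without fluvastatin replicate 1, Lgals3bp, Ifit3 and Ifi27 fell (23.5%), and without fluvastatin replicate 2, Rsad2 rose (11.3%), while the median turned to 0.10 at the most.

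MBV compared to PBS asked the same of the vesicles. Of the 39 members 1 passed the test, Rsad2, whereas 26.1% of 18897 genes did, as did 25.8% of genes in the members' range of CPM, and DESeq2 called Rsad2 alone (24.6% of all genes). Before adjustment 8 members had p under 0.05, all higher with MBV: Ifit2, Rsad2, Oas1a, Oas3, Mx1, Stat2, Ifi35 and Zbp1. That is 20.5% of the members, compared to 18.0% of all genes that were higher at this p and 37.8% in either direction. The 3 MBV libraries were all above the 3 PBS libraries in Ifit2, Rsad2, Oas1a and Ifi35 (4 of 39, with 20.3% of all genes) and all below in none (21.0%). The fitted difference was above 0 in 26 members (66.7%, compared to 51.1% of all genes), with a median of 0.25 on the log2 scale, compared to 0.01 over all genes. The count of members that passed the test turned on single libraries. Without PBS replicate 3, 10 members rose with MBV, namely Rsad2, Stat2, Irf9, Bst2, Irf7, Gbp2, Ifi35, Gbp3, Oasl2 and Ifit2 (22.1% of all genes). Without PBS replicate 1 or 2 the call of Rsad2 was lost and the count was 0 (14.5% and 18.5% of all genes). Without MBV replicate 2 it was 3 (Lgals3bp, Oas2 and Zbp1, but not Rsad2, with 19.3% of all genes) and without MBV replicate 3 it was 2 (Rsad2 and Stat2, with 30.1%). In a single fit of all 9 libraries, an alternative chosen after seeing the data, Rsad2 had an adjusted p of 0.179 in edgeR.

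MBV compared to fluvastatin lay within 1 set of sample numbers. None of the members passed the test, as for nearly all genes (0.0588% of 18721). Before adjustment 9 members had p under 0.05, all higher with MBV (23.1% of members, compared to 5.77% of all genes higher and 10.7% in either direction): Ifit2, Irf7, Oasl2, Oas1a, Oas3, Bst2, Ifi44, Ifi35 and Lgals3bp. DESeq2 called 0 members and 0.652% of all genes. All 3 MBV libraries were above all 3 fluvastatin libraries in Ifit2, Oas1a, Oas3, Xaf1 and Ifi35 (5 of 39, with 8.53% of all genes) and below them in none (7.88%). The fitted difference was above 0 in 33 of 39 members (84.6%, compared to 53.0% of all genes), with a median of 0.31 on the log2 scale, compared to 0.01 over all genes. The number of members with p under 0.05 turned on single libraries. It was 21 higher without fluvastatin replicate 1, 1 higher and 2 lower without fluvastatin replicate 2, 3 higher without fluvastatin replicate 3, 6 without MBV replicate 1, 9 without MBV replicate 2 and 4 without MBV replicate 3. The share of all genes at this p in these fits is not given here, so the counts show only that the number moved. After adjustment 0 members passed in each of them, with 0% to 1.06% of all genes.

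**Figure D2:**
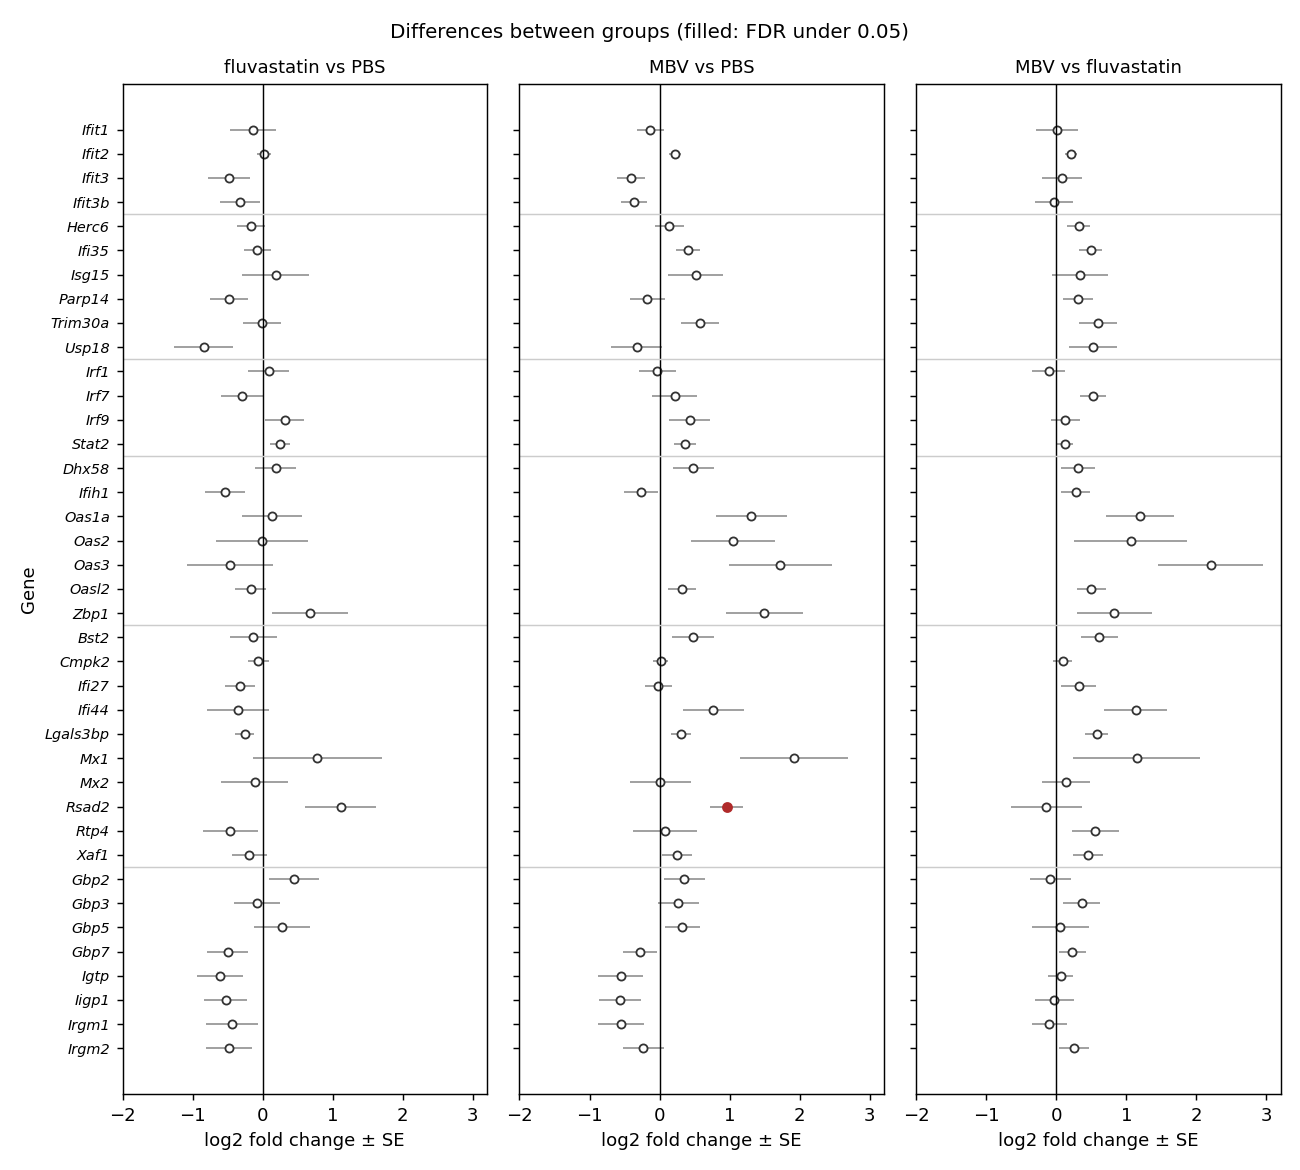
Log2 fold change of each gene (points, grouped by role) with its standard error (lines) for fluvastatin against PBS, MBV against PBS and MBV against fluvastatin, with filled points where the adjusted p was under 0.05. Rsad2 with MBV against PBS was the only filled point. Mx1, Oas3, Zbp1, Oas1a and Oas2 lay farthest to the right with MBV against PBS, and Oas3, Oas1a, Mx1 and Ifi44 with MBV against fluvastatin.

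Among transcription factors, Stat2 and Irf9 are parts of the complex that binds the ISRE. Stat2 was at 37.2, 36.2 and 53.6 CPM with PBS, 51.9, 43.2 and 56.0 with fluvastatin and 57.1, 61.8 and 45.5 with MBV. All 6 treated libraries were above PBS replicates 1 and 2, and PBS replicate 3 lay within their range. The difference was 0.25 ± 0.141 with fluvastatin and 0.36 ± 0.155 with MBV (log2 ± SE, adjusted p = 0.254 and 0.118). Irf9 was at 14.9, 14.3 and 31.3 CPM with PBS, at 27.6, 18.1 and 29.2 with fluvastatin and at 28.5, 33.8 and 19.5 with MBV, and again all treated libraries were above PBS replicates 1 and 2. With all libraries its difference was 0.31 ± 0.274 with fluvastatin and 0.43 ± 0.294 with MBV (log2 ± SE, edgeR, adjusted p = 0.476 and 0.324). Without PBS replicate 3, the highest PBS library for both genes, Stat2 rose with fluvastatin by 0.46 ± 0.0976 and with MBV by 0.56 ± 0.117 (log2 ± SE, edgeR, adjusted p = 0.0135 and 0.0137), and Irf9 by 0.77 ± 0.171 and 0.89 ± 0.197 (adjusted p = 0.0153 and 0.0173). Without PBS replicate 1 or 2 instead, neither gene passed the test with either agent. With MBV, Stat2 was then at 0.28 ± 0.171 and 0.27 ± 0.167 (edgeR, adjusted p = 0.325 and 0.314). Irf9 was at 0.25 ± 0.312 and 0.24 ± 0.309 (adjusted p = 0.620 and 0.621). The Irf9 locus overlaps Rnf31 on the same strand, and how reads of overlapping genes were counted is not given.

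Irf7, which amplifies type I interferon genes, was at 9.16, 8.63 and 21.5 CPM with PBS, 11.99, 8.37 and 11.5 with fluvastatin and 15.6, 11.4 and 18.6 with MBV. Irf1, an early target of type II interferon, was at 5.82, 5.15 and 11.02 CPM with PBS, 9.31, 4.90 and 9.07 with fluvastatin and 7.31, 8.40 and 5.82 with MBV. The groups overlapped in both genes.

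Antiviral effectors act on steps of viral growth. Rsad2 (viperin), which makes a chain-terminating nucleotide, was at 2.37, 1.88 and 3.27 CPM with PBS, 8.49, 1.23 and 6.62 with fluvastatin and 4.60, 6.17 and 3.94 with MBV. All MBV libraries were above all PBS libraries, while the fluvastatin libraries lay on both sides of them. Rsad2 rose with MBV by 0.96 ± 0.235 (log2 ± SE, edgeR, adjusted p = 0.0166), a fold change of 1.95. With fluvastatin the difference was 1.11 ± 0.510 (adjusted p = 0.160). It became 1.60 ± 0.225 without fluvastatin replicate 2 (adjusted p = 0.00786). The counts behind these levels were 55 to 86 with PBS, 33 to 206 with fluvastatin and 92 to 135 with MBV.

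**Figure D3:**
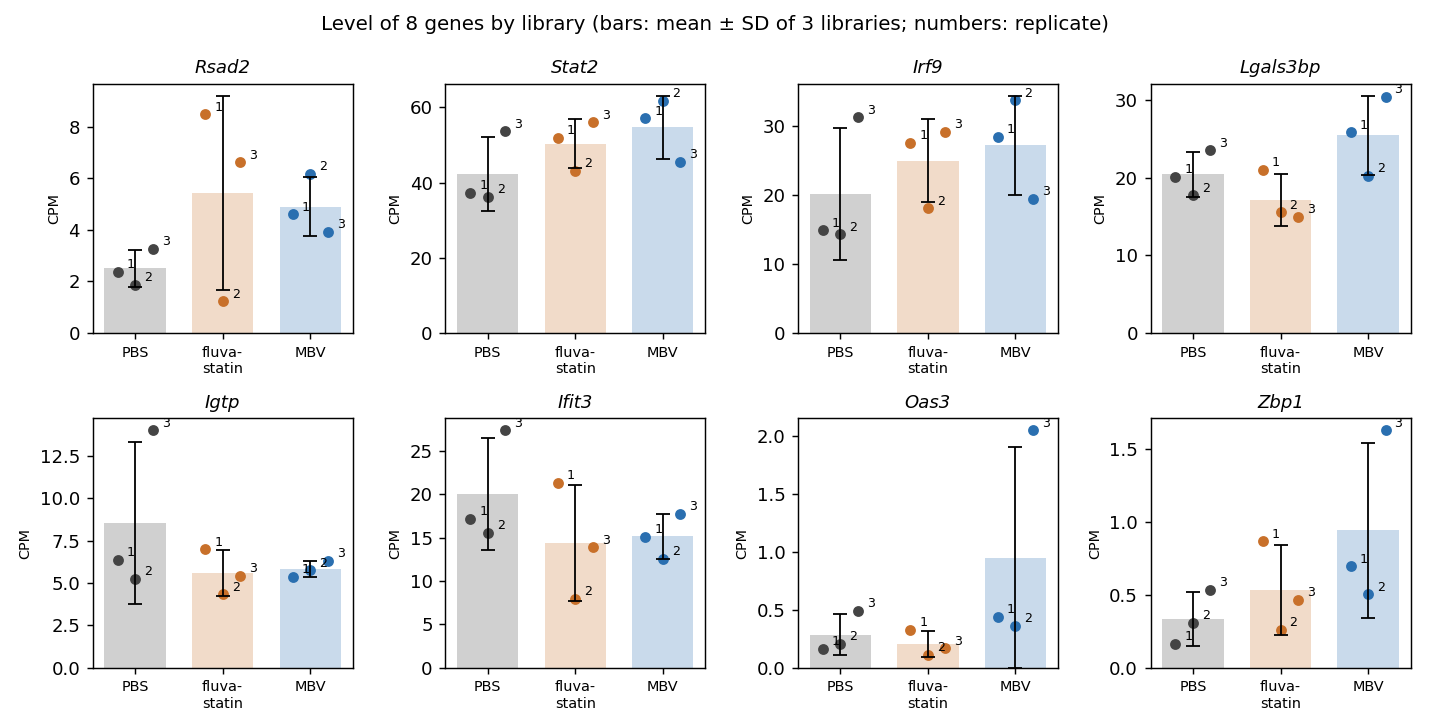
CPM of Rsad2, Stat2, Irf9, Lgals3bp, Igtp, Ifit3, Oas3 and Zbp1 in each library (points, numbered by replicate), with bars for the mean and lines for the SD of 3 libraries. Rsad2 did not overlap between PBS and MBV, while Igtp and Ifit3 were highest in PBS replicate 3 and Oas3 and Zbp1 in MBV replicate 3.

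Mx1, a gene of the dynamin-like GTPases, was at 0.0975, 0.0682 and 0.266 CPM with PBS, 0.494, 0 and 0.254 with fluvastatin and 0.183, 0.365 and 1.11 with MBV. The highest library was MBV replicate 3, and fluvastatin replicate 2 had 0 counts, which allows up to 3. Bst2 (tetherin), which holds budding virus at the cell surface, was at 1.69, 1.71 and 3.61 CPM with PBS, 2.97, 1.495 and 1.91 with fluvastatin and 3.18, 2.74 and 3.81 with MBV. The libraries of the MBV group were all above PBS replicates 1 and 2 and on both sides of PBS replicate 3. Lgals3bp, a secreted glycoprotein that binds galectins, was at 20.1, 17.7 and 23.5 CPM with PBS, 20.97, 15.5 and 14.9 with fluvastatin and 25.8, 20.2 and 30.4 with MBV. It had the smallest p between MBV and fluvastatin, at 0.57 ± 0.162 (log2 ± SE, edgeR, adjusted p = 0.312). Of the 10 effectors, all were highest in replicate 3 among the PBS libraries and in replicate 1 among the fluvastatin libraries.

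Of the 7 members that sense RNA or DNA, 5 were highest in replicate 3 among the MBV libraries. Oas1a was at 0.585, 0.273 and 0.342 CPM with PBS, 0.577, 0.411 and 0.339 with fluvastatin and 0.621, 0.639 and 1.80 with MBV. Oas3 was at 0.163, 0.205 and 0.494 CPM with PBS, 0.330, 0.112 and 0.170 with fluvastatin and 0.439, 0.365 and 2.05 with MBV. Zbp1, a sensor of Z-form nucleic acid that can start necroptosis, was at 0.163, 0.307 and 0.532 CPM with PBS, 0.865, 0.262 and 0.466 with fluvastatin and 0.694, 0.502 and 1.62 with MBV. In all 3 genes MBV replicate 3 was far above the other 8 libraries, the same library in which monocyte markers were highest. The fitted differences between MBV and PBS were 1.31 ± 0.507 for Oas1a, 1.73 ± 0.730 for Oas3 and 1.496 ± 0.550 for Zbp1 (log2 ± SE, edgeR, adjusted p = 0.0886, 0.116 and 0.0759). Without MBV replicate 3 they were 0.63 ± 0.437, 0.51 ± 0.563 and 0.87 ± 0.506 (adjusted p = 0.324, 0.543 and 0.2345). Of the 75-base windows of the Oas1a exons 11.6% also occur in other loci, mainly Oas1g, so its level is uncertain.

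Oasl2, a related protein that binds RNA, was at 15.6, 16.9 and 25.1 CPM with PBS, 23.2, 13.7 and 14.1 with fluvastatin and 23.6, 18.9 and 29.5 with MBV. Ifih1 (MDA5), which senses long double-stranded RNA, was at 11.6, 8.70 and 19.6 CPM with PBS, 12.2, 6.09 and 9.24 with fluvastatin and 10.8, 11.5 and 10.9 with MBV. Ifih1 was even across the MBV libraries, where Oas3 was not. The groups overlapped in both genes.

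Within the MBV group, replicate 3 was the highest library for 25 members (64.1%, compared to 36.4% of all genes) and the lowest for 10 (25.6%, compared to 32.4%). The 10 were Rsad2, Dhx58, Stat2, Irf9, Irf1, Gbp2, Gbp5, Irgm1, Irgm2 and Herc6. By role, replicate 3 was the highest MBV library for 9 of 10 effectors, with Rsad2 the exception, and the lowest for 3 of 4 transcription factors. The chemokine gene Cxcl10, no member, was also lowest there and had 3 counts in MBV replicate 3, compared to 41 and 56 in the other MBV libraries. Without MBV replicate 3, Rsad2 and Stat2 passed the test against PBS, with Rsad2 at 1.09 ± 0.220 and Stat2 at 0.48 ± 0.130 (log2 ± SE, edgeR, adjusted p = 0.00280 and 0.0146).

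**Figure D4:**
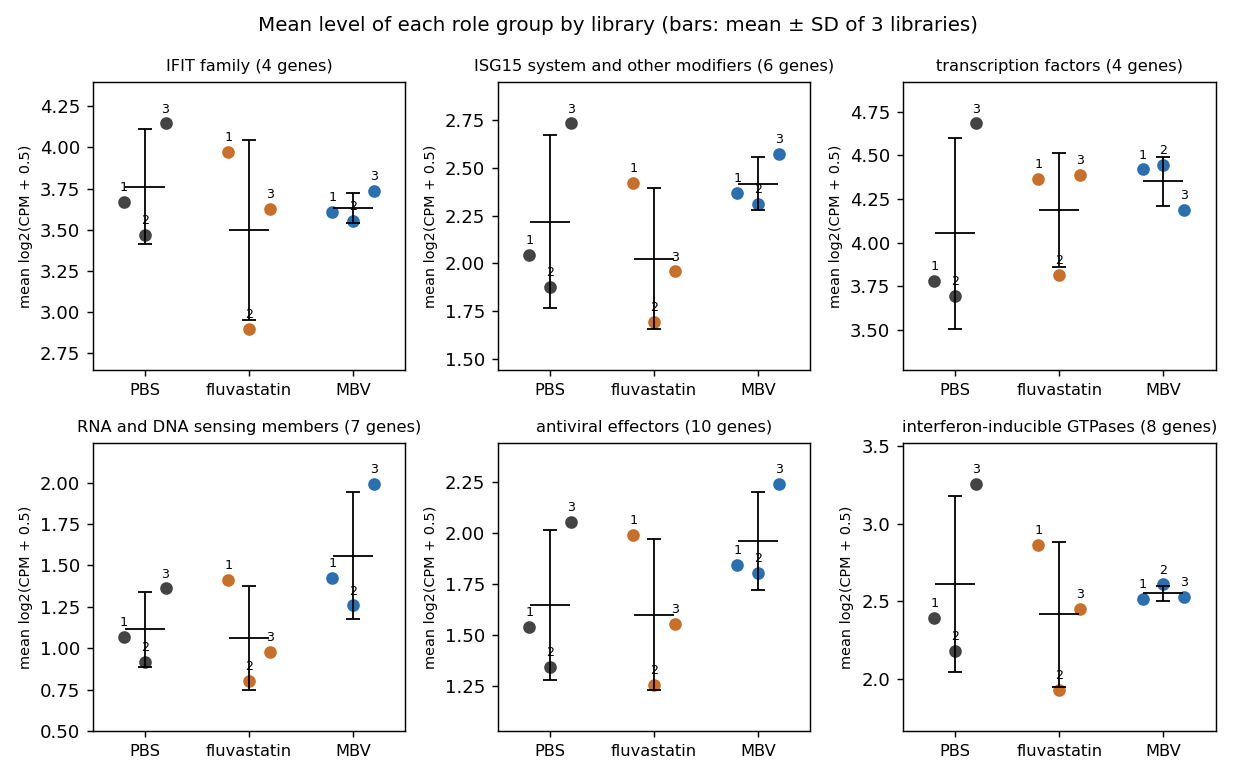
Mean log2(CPM + 0.5) over the genes of each role group in each library (points, numbered by replicate), with horizontal lines for the mean and bars for the SD of 3 libraries, and with axes that differ between panels and do not start at 0. PBS replicate 3 was the highest PBS library in all 6 panels, and MBV replicate 3 was the highest MBV library for sensors and effectors but the lowest for transcription factors.

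The IFIT family binds foreign RNA and blocks its translation. Ifit1 was at 8.06, 6.65 and 12.3 CPM with PBS, 11.6, 4.0 and 8.95 with fluvastatin and 8.08, 7.95 and 8.68 with MBV. Ifit3 was at 17.1, 15.5 and 27.4 CPM with PBS, 21.3, 7.93 and 13.9 with fluvastatin and 15.1, 12.6 and 17.8 with MBV. Both had a wide range with PBS and fluvastatin and a narrow one with MBV. Ifit2 differed from its neighbours on chromosome 19. It was at 19.2, 16.3 and 20.7 CPM with PBS, 20.8, 17.1 and 19.2 with fluvastatin and 21.1, 23.1 and 21.7 with MBV, with no overlap between MBV and either other group, at 0.22 ± 0.0875 against PBS (log2 ± SE, edgeR, adjusted p = 0.0988). The window of Ifit2 held the GAS letters and not the ISRE letters, whereas those of Ifit1, Ifit3 and Ifit3b held the ISRE letters. Only these windows were searched, so an ISRE elsewhere at Ifit2 would be missed. Whether the motifs bear on the levels was not tested. Ifit3 and Ifit3b share 23.5% and 36.9% of their 75-base windows, mainly with each other, so reads could be split between them.

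Isg15, a ubiquitin-like protein that is joined to other proteins, was at 1.20, 0.614 and 2.09 CPM with PBS, 2.55, 0.897 and 0.975 with fluvastatin and 1.498, 1.74 and 2.35 with MBV. Usp18, which removes Isg15 and holds back signalling at Ifnar2, was at 1.59, 2.01 and 4.41 CPM with PBS, 2.18, 0.785 and 1.48 with fluvastatin and 1.90, 1.83 and 2.65 with MBV. The fitted difference of Usp18 with fluvastatin was -0.84 ± 0.423 (log2 ± SE, edgeR, adjusted p = 0.199). Both genes overlapped between groups, and PBS replicate 3 was the highest library for Usp18. Ifi35, an interferon-induced leucine zipper protein, was tighter, at 3.44, 3.17 and 4.63 CPM with PBS, 4.24, 2.95 and 3.48 with fluvastatin and 4.75, 5.43 and 4.79 with MBV. The libraries of the MBV group lay above the others, with differences of 0.41 ± 0.166 against PBS and 0.49 ± 0.167 against fluvastatin (adjusted p = 0.106 and 0.372).

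The interferon-inducible GTPases act on the membranes of vacuoles that hold microbes. Igtp was at 6.37, 5.25 and 14.0 CPM with PBS, 7.003, 4.34 and 5.43 with fluvastatin and 5.37, 5.75 and 6.33 with MBV. Irgm1 was at 8.16, 6.75 and 18.5 CPM with PBS, 12.1, 5.23 and 7.17 with fluvastatin and 8.00, 7.81 and 7.01 with MBV. PBS replicate 3 was above all other libraries in both. Iigp1 was at 1.59, 1.16 and 2.47 CPM with PBS, 1.24, 0.897 and 1.48 with fluvastatin and 1.02, 1.23 and 1.28 with MBV, again highest in PBS replicate 3. Gbp2, a guanylate-binding protein, was at 5.65, 4.09 and 10.4 CPM with PBS, 12.1, 4.86 and 10.6 with fluvastatin and 8.59, 10.5 and 6.80 with MBV. Of the 8 GTPases 0 passed the test in any comparison, and with MBV against PBS the median difference was -0.26 on the log2 scale, compared to 1.05 for the 7 sensing members and 0.28 for the 10 effectors (-0.25, 0.51 and 0.17 without MBV replicate 3). Without PBS replicate 3 these medians were 0.19, 1.01 and 0.70, so the sign for the GTPases turned on that library. PBS replicate 3 was the highest of all 9 libraries for 6 of the 8 GTPases. The Igtp and Irgm2 loci overlap on the same strand, so their counts could share reads.

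Other genes of the pathway were read from lists of receptors, sensors, regulators and further interferon-induced genes. Among 11 receptor and JAK-STAT genes none passed the test with fluvastatin (2 higher and 2 lower before adjustment, and 32.5% of all genes in either direction). With MBV the kinase Tyk2 rose by 0.21 ± 0.0615 and Jak2 and Jak1 fell, at -0.17 ± 0.0497 and -0.14 ± 0.0446 (log2 ± SE, edgeR, adjusted p = 0.0359, 0.0325 and 0.0418), 3 of 11 (27.3%, compared to 26.1% of all genes). DESeq2 did not call Tyk2 (adjusted p = 0.0802). Among 17 sensors, adaptors and kinases Irf3, which switches on Ifnb1, and the adaptor Ticam1 rose with both agents, although DESeq2 did not call Ticam1 with fluvastatin (adjusted p = 0.0579). In all 2 of the 17 (11.8%) passed with fluvastatin and 4 (23.5%) with MBV, compared to 19.6% and 26.1% of all genes. Irf3 was at 27.5, 26.0 and 24.1 CPM with PBS, 35.8, 31.2 and 30.4 with fluvastatin and 34.0, 34.4 and 34.0 with MBV, with no overlap between PBS and the treated libraries. Its differences were 0.33 ± 0.0780 and 0.39 ± 0.0612 (adjusted p = 0.0162 and 0.00243). Myd88 and Cgas also rose with MBV, by 0.69 ± 0.207 and 1.36 ± 0.410 (adjusted p = 0.0362 and 0.0380), although DESeq2 did not call Cgas (adjusted p = 0.0622). Of 12 negative regulators, Irf2 and Sirpa rose and Pias1 fell with fluvastatin, and Sirpa, Ptpn2 and Rnf125 rose with MBV, in each case 3 of 12, compared to 19.6% and 26.1% of all genes. DESeq2 did not call Rnf125 (adjusted p = 0.119).

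Of 43 further interferon-induced genes 3 (6.98%) passed the test with fluvastatin and 1 (2.33%) with MBV, compared to 19.6% and 26.1% of all genes. Cxcl10, the chemokine that draws cells bearing Cxcr3, was at 0.195, 0.273 and 0.570 CPM with PBS, 3.46, 0.262 and 3.14 with fluvastatin and 1.498, 2.56 and 0.128 with MBV. Fluvastatin replicates 1 and 3 and MBV replicates 1 and 2 were above PBS, and the remaining library of each group was not. Cxcl10 rose with fluvastatin by 2.72 ± 0.757 (log2 ± SE, edgeR, adjusted p = 0.0299), while with MBV it was 2.01 ± 0.794 (adjusted p = 0.0953, and 0.0406 with DESeq2). Ifitm1, which restricts virus entry, fell with fluvastatin by 1.83 on the log2 scale (SE 0.479, adjusted p = 0.0235), from 0.955 to 2.01 CPM with PBS to 0.187 to 0.783 CPM. Ifi27l2a fell by 1.16 (SE 0.361, adjusted p = 0.0467), although DESeq2 did not call it (adjusted p = 0.0528). Sp100, a nuclear body protein, rose with MBV by 1.17 ± 0.355 (adjusted p = 0.0389). No gene of these lists passed the test between MBV and fluvastatin.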

How the data were processed

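RNA of whole retina was sequenced by the authors as paired reads and aligned to GRCm39 with CLC Genomics Workbench; the counting of overlapping genes and of strand is not given in the sources used here. The deposited values are raw counts per gene, in 4 tables of 25655 genes. Their columns of fold changes, p-values and means hold the authors' own comparisons and were not used. Of the count columns, 6 name no library and were not used, so MBV+F was not analysed here and its planned comparisons were not run. The 9 columns that repeat a named library were identical. Library totals were 26325065 to 30992040 (PBS), 23634662 to 27098889 (fluvastatin) and 21349516 to 26738043 (MBV), and no pair of replicates agreed within sampling noise.

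The counts were tested with edgeR 4.0.16 (R 4.3.3) by quasi-likelihood for each pair of groups, with TMM scaling, all genes with at least 1 count, and Benjamini-Hochberg adjustment over all of them. A gene was called at an adjusted p under 0.05. SE is the log2 fold change divided by the square root of F. DESeq2 1.42.0, other scalings, a count filter, a replicate block and the omission of each library were alternatives. The scripts were tested on simulated data with 200 genes changed 2-fold. Of these, 195, 191 and 185 were recovered for fluvastatin against PBS, MBV against PBS and MBV against fluvastatin, beside 31, 23 and 25 false calls. The changes were set only in well-counted genes, so members of low count were not covered. Levels are TMM-scaled CPM, and levels per kb use GENCODE exon lengths. The members and lists were chosen with earlier results of these data known. Per-library values were given for fixed members of each role, for up to 10 called members per comparison (with under 3 called, the 3 of smallest p), and for up to 3 called genes per list. Ifit2, Irf9, Cgas and the marker genes named were chosen after their values were seen. Some results on the pathway lists are not reported here.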

Additional observations from a re-analysis of the deposited data

How the results depend on the processing

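For the median of the members and the 3 genes of smallest p in each comparison, no direction changed under another test, scaling or filter. With fluvastatin against PBS the count of members called was 0 with DESeq2, other scalings and the count filter, 1 (Stat2) with the replicate block, and 0 to 3 when 1 library was left out (3 lower, Lgals3bp, Ifit3 and Ifi27, without fluvastatin replicate 1, 2 higher, Stat2 and Irf9, without PBS replicate 3, and 1, Rsad2, without fluvastatin replicate 2). The median difference ran from -0.45 to 0.10 on the log2 scale, so leaving out a library could turn it. With MBV against PBS the count was 1 with DESeq2, other scalings and the count filter, 5 with the replicate block (Lgals3bp, Oas3, Trim30a and Zbp1 higher, Ifit3 lower, while the call of Rsad2 was lost at 0.96 ± 0.269 on the log2 scale, adjusted p = 0.0508 in edgeR), 0 in 1 fit of all 9 libraries, an alternative chosen after seeing the data, and 0 when a fold change of at least 2 was also asked. It was 0 to 10 when 1 library was left out, with 3 (Lgals3bp, Oas2 and Zbp1) without MBV replicate 2 and 2 without MBV replicate 3, and the median ran from 0.10 to 0.55. The cause of these changes was not tested. With MBV against fluvastatin the count was 0 in all alternatives. The replicate numbers did not pair the samples: correlations of same-numbered libraries were 0.0285, -0.0299 and 0.159 for PBS and fluvastatin, 0.0121, -0.0131 and 0.0391 for PBS and MBV, and -0.141, 0.0205 and -0.366 for fluvastatin and MBV, and the block moved all calls from 3687 to 3727, from 4937 to 3876 and from 11 to 0. The planned fit of all 4 groups was not run. With 6 members under 10 counts in some library, counting error adds to the spread of Mx1, Oas2 and Oas3.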

Other observations

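Genes outside the lists were ranked by how closely their log2(CPM + 0.5) followed the mean of the 39 members over the 9 libraries, among 13830 genes. The closest were Rnf213, a large ubiquitin ligase, with r = 0.98, Nrm, a protein of the inner nuclear membrane, with r = 0.96, and Psme1, an activator subunit of the proteasome, with r = 0.93. Rnf213 was at 57.1, 50.3 and 95.5 CPM with PBS, 72.7, 41.4 and 52.5 with fluvastatin and 73.9, 69.3 and 85.8 with MBV. These values come from the same libraries as the members and are a description. Of the members, Bst2 followed the mean of the others most closely (r = 0.95) and Dhx58 least (r = 0.33).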
